A study of Mus musculus with 44 samples.

Results

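The samples were 8 cultures of mouse peritoneal macrophages kept with lipopolysaccharide (LPS), 4 harvested after 24 h and 4 after 8 h, out of 44 libraries in the series. Their rule uses labels only, namely the columns of the count table for LPS at 24 h and LPS at 8 h. The macrophages came from C57BL/6 mice that had received thioglycolate, which draws monocytes into the peritoneum, and were collected 4 days later. Cells of several mice were pooled into 1 isolate, and the cultures were adherent cells in DMEM with 10% FBS. LPS, the outer membrane component of Gram-negative bacteria, was given at 100 ng/mL to both groups. Cultures without a stimulus at 24 h and at 8 h (4 of each) served as a second pair, against which the change over time was set. The remaining libraries were cultures with IL-4 (10 ng/mL) or a cell extract (10 ug/mL), and LPS and unstimulated cultures of 72 h. They entered the filter on low counts, the scaling and the shared estimate of spread behind each test. Because every culture came from the same pooled isolate, p-values measure only the spread between cultures, not between animals. The comparison of the later with the earlier time asks which parts of the LPS response had passed, persisted or begun between these harvests.

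LPS is sensed by Toll-like receptor 4 with its partners Cd14 and Ly96. Its adaptor Myd88 leads to NF-kB and AP-1 and to fast transcription of cytokine and chemokine genes, and its adaptor Ticam1 leads to interferon beta, whose receptor then drives the interferon-stimulated genes. These early genes are held in check by inhibitors that the same signal induces, such as IkB proteins, A20 (Tnfaip3), SOCS proteins and mRNA-degrading factors. Macrophages kept with LPS are also known to raise glycolysis, to make nitric oxide and itaconate, and to make acute-phase and iron-binding proteins.

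The 24 h libraries held 3593885 to 13729187 reads in genes, and the 8 h libraries 4508462 to 11829575. Of 46078 genes in the table, 14537 passed the filter on low counts and were tested, and levels are given as counts scaled to library size with TMM factors (CPM), with mean ± SD over 4 cultures. Values in parentheses after a gene are the fitted log2 change of 24 h over 8 h ± its standard error, with the Benjamini-Hochberg adjusted p of edgeR's quasi-likelihood test. This standard error was derived from the test, as the size of the log2 change divided by the square root of the F statistic. Replicate 3 at 24 h stood apart, since ribosomal RNA genes took 5.73% of its counts, against 0.467% to 0.569% in the other 24 h libraries and 0.425% to 0.803% in the 8 h libraries. The first principal component of the 8 libraries held 53.4% of the variance and separated the times. Macrophage identity genes had reads in all 8 libraries for 22 of 22 list members, and their summed level was 16892 to 18787 CPM at 24 h and 19481 to 23290 CPM at 8 h. Markers of other cell types are given further on.

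Between the harvests 2433 genes rose (16.7% of those tested) and 2977 fell (20.5%), at an adjusted p under 0.05 in edgeR's quasi-likelihood test. With a change of at least 2-fold as a further condition, 900 rose (6.19%) and 1725 fell (11.9%). The 24 h libraries lay above all 8 h libraries for 2506 genes (17.2%) and below them for 2776 (19.1%), 36.3% in all. The median log2 change over all tested genes was -0.05. The falls depended on the level. Genes with a mean under 5 CPM gave 1140 falls and 529 rises, and without replicate 2 of the 8 h cultures, the library with the most genes detected among these 8, these counts were 442 and 532. Above that level 1837 genes fell and 1904 rose, and without the same library 1421 fell and 1962 rose. These pooled counts hold opposite parts. At 5 to 20 CPM 364 fell and 897 rose, and at 20 to 100 CPM 646 fell and 810 rose. At 100 CPM or more 827 fell and 197 rose, and without the same library 682 fell and 192 rose. Over all genes, 1863 fell and 2494 rose without it. The TMM factors were 0.915 to 0.996 in the 24 h libraries and 0.728 to 0.842 in the 8 h libraries. Levels at 8 h were thus scaled up more than those at 24 h. How far the falls, small ones above all, rest on this scaling was not tested beyond the RLE alternative. The genes described below were taken mainly from those with a mean of at least 5 CPM.

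**Figure D1:**
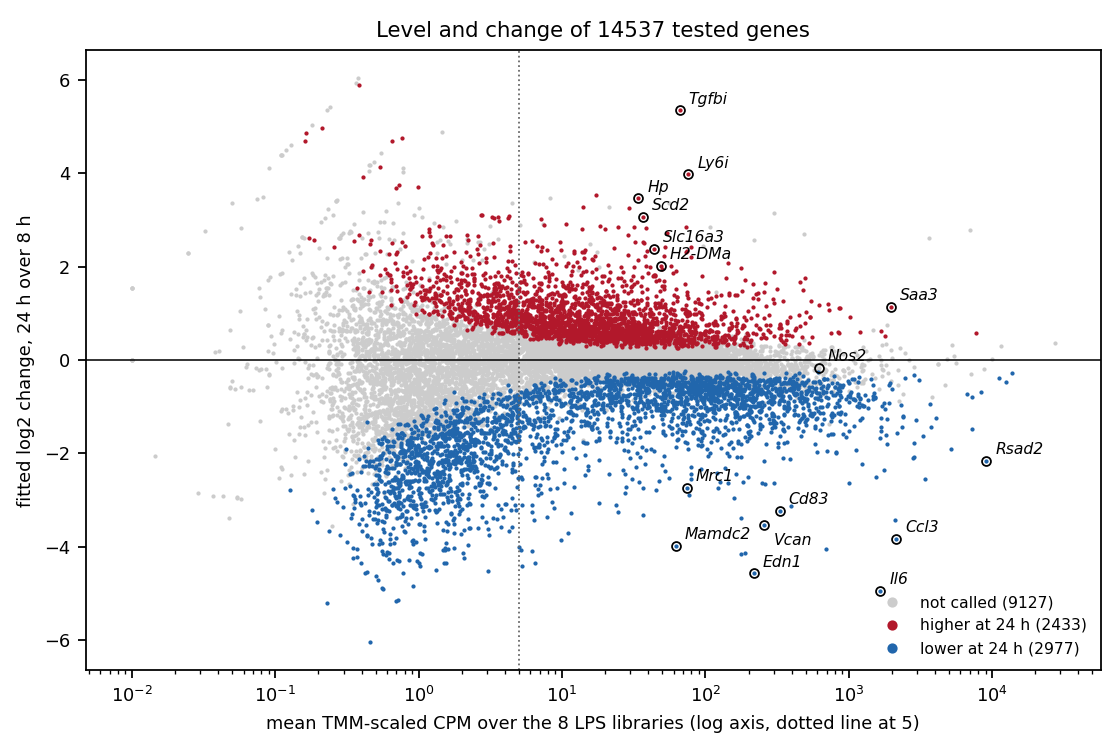
Fitted log2 change between 24 h and 8 h of LPS (vertical axis) against the mean level over the 8 libraries (horizontal log axis) for the 14537 tested genes, 1 point per gene, with 2433 genes higher at 24 h in red, 2977 lower in blue and the rest in grey. Blue points outnumber red ones at 100 CPM or more and below the dotted line at 5 CPM, and Il6 and Tgfbi stand at the lower and upper ends among genes above that line.

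Most of the early cytokine genes fell. Il6, which encodes interleukin 6 (chr5:30013114-30019981 in GRCm38), had 109, 106, 81.6 and 125 CPM at 24 h, against 3108, 2757, 3380.4 and 3624 CPM at 8 h. Its log2 change of -4.94 ± 0.81, adjusted p = 6.8e-06, was the largest fall among protein-coding genes of at least 5 CPM. Il12b, the p40 subunit shared by interleukins 12 and 23, had 36.6, 32.3, 24.0 and 32.9 CPM at 24 h, against 373, 289.5, 380.0 and 257 CPM at 8 h (-3.38 ± 0.47, adjusted p = 3.6e-07). Tnf, the tumour necrosis factor, had 638, 639, 460.3 and 563 CPM at 24 h, against 2993, 2908, 2637 and 3151 CPM at 8 h (-2.35 ± 0.58, adjusted p = 0.0015). For these genes every 24 h culture lay below every 8 h culture. Il1b, the precursor of interleukin 1 beta, had 467, 492, 348 and 541 CPM at 24 h, against 2622, 2292, 2686 and 2874 CPM at 8 h (-2.50 ± 0.63, adjusted p = 0.0019). It too showed no overlap, and for all 4 genes the lowest 24 h value was that of replicate 3. Il27, a subunit of interleukin 27, had a log2 change of -4.14 ± 0.53, adjusted p = 6.7e-08, and Tnfsf15, a TNF family ligand that costimulates T cells, one of -4.15 ± 0.40, adjusted p = 7.9e-11. Il18 had 19.6, 21.4, 10.8 and 21.5 CPM at 24 h, against 128, 105, 147 and 157 CPM at 8 h (-2.88 ± 0.21, adjusted p = 1.7e-13). The means of Il15, a growth factor of NK cells, were 83.0 ± 11.6 CPM at 24 h and 517 ± 39.4 CPM at 8 h (-2.64 ± 0.21, adjusted p = 8.8e-13). Those of Csf1, the macrophage growth factor, were 73.4 ± 9.86 CPM at 24 h and 199.6 ± 13.5 CPM at 8 h (-1.44 ± 0.13, adjusted p = 1.9e-11). Of 23 cytokine genes 22 were tested, 17 fell (77.3%, against 20.5% of all tested genes), 4 did not pass and 1 rose, with a median log2 change of -1.87. The member that rose was Ebi3, the other subunit of interleukin 27, with a mean of 10.0 ± 3.47 CPM at 24 h and 5.18 ± 0.663 CPM at 8 h (0.93 ± 0.31, adjusted p = 0.017), which did not pass without replicate 1 at 24 h. Il10, the anti-inflammatory cytokine, was low in both groups, at 0, 0.232, 0.478 and 0.395 CPM at 24 h, against 2.59, 0.293, 2.21 and 1.38 CPM at 8 h (-2.27 ± 0.68, adjusted p = 0.0086), and the groups overlapped. Ifnb1 did not pass the filter on low counts.

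**Figure D2:**
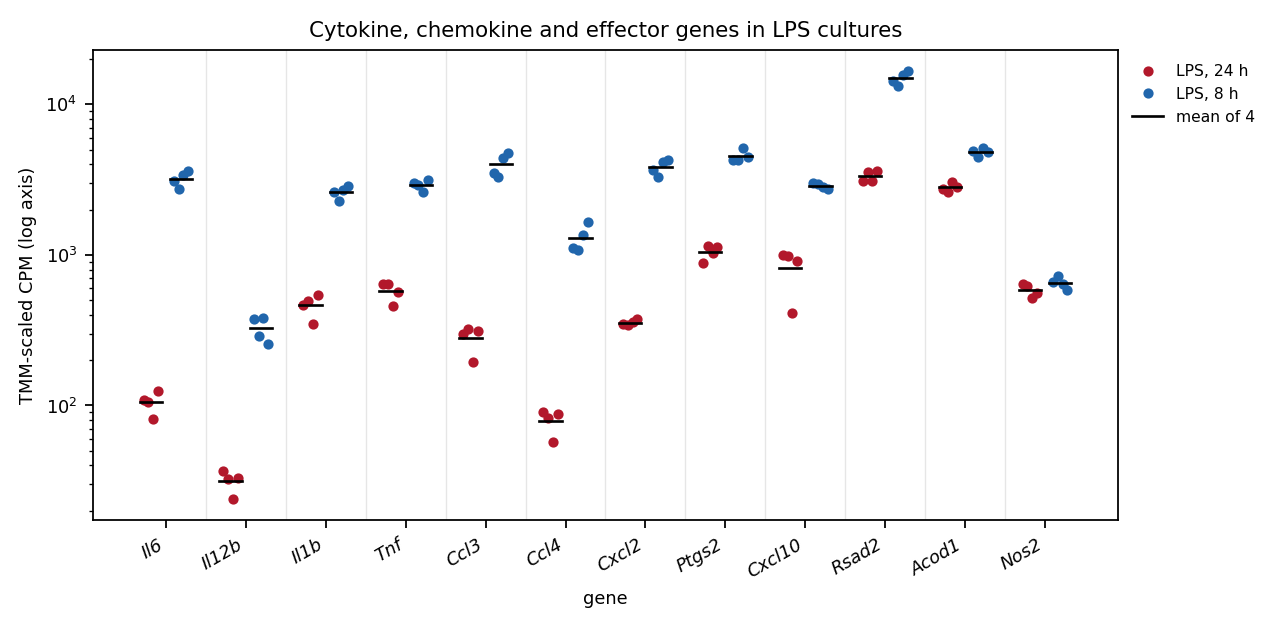
Level in CPM (log axis) of 12 cytokine, chemokine and effector genes in the 4 cultures at 24 h of LPS (red) and the 4 at 8 h (blue), 1 point per culture, with bars at the means. The groups do not overlap for any gene shown but Nos2, and the gap is widest for Il6, with means of 105 and 3217 CPM.

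Most tested genes in a list of mainly neutrophil-attracting and inflammatory CC chemokines fell too. Ccl3 (MIP-1 alpha) had 296, 322, 195 and 312 CPM at 24 h, against 3485, 3299, 4436 and 4768 CPM at 8 h (-3.83 ± 0.41, adjusted p = 1.5e-09). Ccl4 (MIP-1 beta) had 90.1, 82.2, 57.2 and 87.5 CPM at 24 h, against 1116, 1079.6, 1348 and 1664 CPM at 8 h (-4.04 ± 0.32, adjusted p = 6.8e-13). Cxcl2, a ligand of Cxcr2 on neutrophils, had 345, 344, 357 and 374 CPM at 24 h, against 3655, 3269, 4115 and 4299 CPM at 8 h (-3.43 ± 0.68, adjusted p = 1.1e-04). In all 3 the groups were far apart, and the mean at 24 h remained above that of unstimulated cultures at 24 h, which was 47.4, 13.8 and 21.5 CPM in that order. Ccl9 averaged 278 ± 35.7 CPM at 24 h and 1720.5 ± 81.7 CPM at 8 h (-2.63 ± 0.21, adjusted p = 6.5e-13). Ccl6 averaged 118 ± 11.5 CPM at 24 h and 350.1 ± 30.3 CPM at 8 h (-1.57 ± 0.15, adjusted p = 3.5e-11), so that at 24 h it was below the 543 CPM of unstimulated cultures. The list of neutrophil-attracting and inflammatory CC chemokines also held Pf4, Cxcl14 and Cxcl16, and Ccl17, Ccl22 and Ccl24, known from alternative activation. Of its 20 genes 19 were tested. Of these, 12 fell (63.2%, against 20.5% of all tested genes), 7 did not pass and 0 rose (median -1.24). Cxcl14 and Ccl22 were among the falls. Without replicate 3 at 24 h 1 rose, and without replicate 2 at 8 h likewise 1.

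The chemokines of interferon responses, ligands of Cxcr3 on T cells, did not all fall. Cxcl10 had 997, 984, 411 and 905 CPM at 24 h, against 3006, 2938, 2808 and 2756 CPM at 8 h (-1.80 ± 0.69, adjusted p = 0.037), with replicate 3 far below the other 24 h cultures. Its adjusted p was no longer under 0.05 when any 1 of the 8 libraries was left out, at log2 changes of -1.91 to -1.51 there and in DESeq2. Cxcl9 had 366, 242, 103 and 327 CPM at 24 h, against 225, 203, 298 and 272 CPM at 8 h, with overlapping groups and a log2 change of 0.05 ± 0.32, adjusted p = 0.92. Cxcl11 averaged 24.2 ± 8.70 CPM at 24 h and 21.2 ± 1.89 CPM at 8 h (0.18 ± 0.32, adjusted p = 0.69). Neither passed the test.

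The products known as hallmarks of the M1 macrophage persisted to different degrees. Nos2, the inducible nitric oxide synthase, had 646, 621, 518 and 558 CPM at 24 h, against 657, 729, 644 and 586 CPM at 8 h. Its log2 change of -0.16 ± 0.39, adjusted p = 0.78, was not called, and the groups overlapped. Unstimulated cultures had 1.12 to 6.92 CPM at 24 h and 24.4, 2.93, 5.12 and 3.41 CPM at 8 h, the highest at each time being replicate 1. Acod1, which makes itaconate, had 2738, 2629, 3040.1 and 2818 CPM at 24 h, against 4906, 4500.3, 5171 and 4859.8 CPM at 8 h. These groups did not overlap, yet the change of -0.79 ± 0.59, adjusted p = 0.31, was not called in the fit of all 44 libraries, and it was called when the LPS groups were fitted alone. Ptgs2 (cyclooxygenase 2) had 888, 1142, 1035 and 1136 CPM at 24 h, against 4282, 4266, 5108 and 4459 CPM at 8 h (-2.11 ± 0.54, adjusted p = 0.0021). Some other genes of the prostaglandin pathway went the other way. Ptges, the prostaglandin E synthase that works with Ptgs2, averaged 333 ± 74.2 CPM at 24 h and 177 ± 10.1 CPM at 8 h (0.91 ± 0.22, adjusted p = 0.0013), and the receptors Ptger2 and Ptgir had log2 changes of 2.17 ± 0.21, adjusted p = 1.1e-10 and 0.91 ± 0.15, adjusted p = 1.1e-05. Of 14 tested members 4 rose (28.6%, against 16.7% of all tested genes), 1 fell (7.14%, against 20.5%) and 9 did not pass. In the list of nitric oxide, arginine and itaconate genes 5 of 18 rose (27.8%), 2 fell (11.1%) and 11 did not pass. Among them were the isocitrate dehydrogenases Idh1 (78.6 ± 1.37 CPM at 24 h and 24.5 ± 2.56 CPM at 8 h) and Idh2 (26.1 ± 1.29 CPM at 24 h and 10.9 ± 1.65 CPM at 8 h), with log2 changes of 1.69 ± 0.14, adjusted p = 3.9e-12 and 1.25 ± 0.13, adjusted p = 6.5e-10, and Spr (0.84 ± 0.17, adjusted p = 1.0e-04), the last enzyme of tetrahydrobiopterin synthesis. Gch1, the first enzyme of that synthesis, fell (-0.88 ± 0.16, adjusted p = 3.4e-05). Arg1, the arginase that competes with Nos2 for arginine, had 22.7, 21.8, 65.1 and 25.1 CPM at 24 h, against 11.5, 18.5, 14.6 and 17.7 CPM at 8 h (1.12 ± 0.32, adjusted p = 0.006). Replicate 3 at 24 h was the high value, and without it the log2 change was 0.63, which did not pass.

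Most interferon-stimulated genes of antiviral defence fell. Of 32 genes tested 27 fell (84.4%, against 20.5% of all tested genes), 3 did not pass and 2 rose. The median log2 change was -0.98, against -0.05 over all genes. The falls numbered 18 without replicate 3 at 24 h and 21 without replicate 2 at 8 h. Rsad2 (viperin) had 3092, 3536, 3110.4 and 3598 CPM at 24 h, against 14199, 13241, 15602 and 16540.0 CPM at 8 h (-2.16 ± 0.47, adjusted p = 4.3e-04). Unstimulated cultures held 102, 44.1, 47.4 and 44.2 CPM at 24 h and 489, 58.9, 64.9 and 56.8 CPM at 8 h, with replicate 1 the highest at both times. Ifih1, the sensor MDA5 for double-stranded RNA, averaged 456 ± 51.7 CPM at 24 h and 1368 ± 144 CPM at 8 h (-1.59 ± 0.17, adjusted p = 1.4e-09). Eif2ak2, the kinase PKR, averaged 166 ± 16.5 CPM at 24 h and 423 ± 52.7 CPM at 8 h (-1.35 ± 0.13, adjusted p = 7.1e-11), and Tor3a and Trim30a had log2 changes of -1.27 ± 0.14, adjusted p = 1.2e-09 and -1.01 ± 0.13, adjusted p = 8.6e-08. The members that rose were Bst2 (tetherin), whose groups overlapped, at 1014, 835, 1030.3 and 1225 CPM at 24 h, against 573, 509.7, 748 and 925 CPM at 8 h (0.57 ± 0.23, adjusted p = 0.047), and Ifi27l2a at 379.5, 312, 369 and 352 CPM at 24 h, against 205, 172, 223 and 232 CPM at 8 h (0.76 ± 0.22, adjusted p = 0.0057). Bst2 did not pass with RLE size factors, in DESeq2 or without any 1 of 4 of the libraries (replicates 1 and 4 at 24 h, 1 and 2 at 8 h). Transcription factors of the pathway fell as well. Irf8 had 426, 287, 274 and 326 CPM at 24 h, against 1019, 829, 886 and 961 CPM at 8 h (-1.50 ± 0.15, adjusted p = 2.0e-10). Stat5a averaged 13.4 ± 0.741 CPM at 24 h and 53.5 ± 9.83 CPM at 8 h (-2.001 ± 0.24, adjusted p = 2.0e-08), and Irf2 and Irf5 had log2 changes of -0.89 ± 0.16, adjusted p = 4.4e-05 and -0.67 ± 0.15, adjusted p = 5.4e-04. Of 19 interferon regulatory and STAT pathway genes 12 fell (63.2%) and 1 rose, which was Ifngr1, a chain of the interferon gamma receptor (0.44 ± 0.12, adjusted p = 0.0031). In this list the falls numbered 8 without replicate 3 at 24 h and 9 without replicate 2 at 8 h.

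The interferon-inducible GTPases, which attack the vacuoles of intracellular microbes, are described apart from these. Of 17 tested, 5 rose (29.4%, against 16.7% of all tested genes), 1 fell (5.88%, against 20.5%) and 11 did not pass (median -0.13). Tgtp1 had 90.6, 89.5, 53.5 and 117 CPM at 24 h, against 14.4, 15.5, 17.3 and 17.7 CPM at 8 h (2.42 ± 0.24, adjusted p = 1.6e-10). Gbp8 had 66.8, 61.4, 53.1 and 81.6 CPM at 24 h, against 13.2, 10.3, 16.03 and 12.4 CPM at 8 h (2.33 ± 0.22, adjusted p = 9.0e-11). In both, all 24 h cultures lay above all 8 h cultures. Gbp4 had 497, 556, 324 and 574 CPM at 24 h, against 197, 196, 221 and 196 CPM at 8 h (1.27 ± 0.25, adjusted p = 8.4e-05). Gbp11 had 21.5, 19.99, 9.96 and 23.6 CPM at 24 h, against 1.73, 1.76, 2.90 and 3.45 CPM at 8 h (2.91 ± 0.36, adjusted p = 7.3e-08). Gbp10 also rose, at 3.79 ± 1.18 CPM at 24 h and 0.934 ± 0.0676 CPM at 8 h (1.97 ± 0.57, adjusted p = 0.0074). In all 5 replicate 3 was the lowest of the 24 h cultures, still above every 8 h culture. Irgm1 was the member that fell, with 798, 887, 774 and 879.8 CPM at 24 h, against 1154, 1079, 1253 and 1177 CPM at 8 h (-0.48 ± 0.13, adjusted p = 0.0044), and it did not pass without replicate 3 at 8 h or without the filter on low counts. Tgtp1 and Tgtp2 are near-identical copies, and several Gbp genes are close copies of one another. The level of each such gene is uncertain to the extent that reads were shared between copies. Tgtp2 averaged 186 ± 31.0 CPM at 24 h and 246 ± 32.3 CPM at 8 h (-0.40 ± 0.31, adjusted p = 0.32).

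Promoters of the riser Tgtp1 and of Irgm1, the member that fell, are shown to place their interferon-type motifs. They are the 250 bases before the RefSeq start site in GRCm38.p6, for Tgtp1 chr11:48992247-48992496 on the minus strand and for Irgm1 chr11:48871421-48871670 on the minus strand, 5′ to 3′. These RefSeq starts lie 1926 bases (Tgtp1) and 263 bases (Irgm1) from the gene starts in GENCODE. Capitals mark matches to the core of the interferon-stimulated response element (ISRE, AAANNGAAA) and to the gamma-activated site (GAS, TTCNNNGAA), searched on both strands.
Tgtp1: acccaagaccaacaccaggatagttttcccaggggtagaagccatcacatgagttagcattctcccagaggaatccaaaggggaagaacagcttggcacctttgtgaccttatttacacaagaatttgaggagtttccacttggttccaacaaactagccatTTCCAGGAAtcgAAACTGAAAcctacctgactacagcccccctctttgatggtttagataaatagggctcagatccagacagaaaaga
Irgm1: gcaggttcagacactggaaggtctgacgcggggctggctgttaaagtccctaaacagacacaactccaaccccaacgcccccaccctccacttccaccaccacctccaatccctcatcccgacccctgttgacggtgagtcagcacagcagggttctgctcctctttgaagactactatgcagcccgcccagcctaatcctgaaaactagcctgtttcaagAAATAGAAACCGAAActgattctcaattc
Tgtp1 held a GAS match at -88 to -80 and an ISRE core at -76 to -68, while Irgm1 held overlapping ISRE cores at -29 to -21 and -23 to -15, positions being counted back from the start site. In windows of 300 bases, from 250 before to 50 after the start, the ISRE core was present for 9 of 9 GTPase genes with a RefSeq window, for 17 of 22 antiviral genes (77.27%) and for 12.06% of all 27025 genes with a window. The GAS letters were present for 6 of 9 GTPase genes (66.67%), 7 of 22 antiviral genes (31.82%) and 9.55% of all genes. Besides Tgtp1, the GTPase genes with GAS letters were Irgm2, Igtp, Tgtp2, Gbp5 and Gbp7, which were not called. Of the antiviral genes with these letters Bst2 rose, and Isg20, Oas1a, Ifit2, Eif2ak2, Ifi35 and Samhd1 fell. A match of letters is a description of the window and no measure of binding.

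Several genes of antigen presentation by MHC class II rose. Ciita, the master regulator of class II transcription, had 51.5, 33.1, 28.8 and 28.0 CPM at 24 h, against 17.0, 21.1, 12.9 and 11.0 CPM at 8 h (1.17 ± 0.28, adjusted p = 0.0013). H2-DMa and H2-DMb1 encode the DM molecule that loads peptides. H2-DMa had 93.1, 80.8, 65.1 and 73.6 CPM at 24 h, against 23.3, 15.97, 20.2 and 17.9 CPM at 8 h (2.02 ± 0.20, adjusted p = 3.1e-10). H2-DMb1 had 187, 142, 139 and 161 CPM at 24 h, against 56.6, 49.1, 67.8 and 76.9 CPM at 8 h (1.33 ± 0.15, adjusted p = 4.5e-09). In these 3 genes the groups did not overlap. Ifi30, a lysosomal thiol reductase of antigen processing, had 212, 201, 290.2 and 213 CPM at 24 h, against 132, 118, 141 and 150.0 CPM at 8 h (0.76 ± 0.14, adjusted p = 3.7e-05), with replicate 3 the highest 24 h culture. The class II chain H2-Ab1 had 806, 565, 526 and 676 CPM at 24 h, against 469.8, 386, 439 and 536 CPM at 8 h, with 1 culture of 24 h below the highest of 8 h. Its log2 change of 0.49 ± 0.19, adjusted p = 0.044, did not pass without replicate 1 or 4 at 24 h or replicate 2 at 8 h. Cd74, the invariant chain, had 897, 670.1, 660.1 and 693 CPM at 24 h, against 666, 602, 584 and 667 CPM at 8 h and was not called (0.21 ± 0.20, adjusted p = 0.44). Of 16 tested genes 8 rose (50.0%, against 16.7% of all tested genes), 7 did not pass and 1 fell (6.25%, against 20.5%), with a median of 0.52. Ctss, the protease that trims the invariant chain, was the member that fell (-0.28 ± 0.10, adjusted p = 0.032), and it did not pass without any 1 of 7 of the 8 libraries or without the filter on low counts.

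The promoters of 3 class II pathway genes that rose, H2-DMa, H2-DMb1 and H2-Oa, are printed from the same source, since the known class II promoter has a Y box. The RefSeq starts lie 3291, 119 and 39 bases from the GENCODE gene starts in that order. The windows are chr17:34122582-34122831, chr17:34152941-34153190 and chr17:34092129-34092378, on the plus strand, in GRCm38.p6. Capitals mark the letters CTGATTGG, searched on both strands together with the motifs above.
H2-DMa: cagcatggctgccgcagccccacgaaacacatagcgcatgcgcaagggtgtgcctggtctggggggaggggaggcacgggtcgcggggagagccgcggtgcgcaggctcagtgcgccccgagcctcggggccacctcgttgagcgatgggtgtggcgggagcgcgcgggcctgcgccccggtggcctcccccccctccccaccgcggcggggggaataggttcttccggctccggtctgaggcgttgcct
H2-DMb1: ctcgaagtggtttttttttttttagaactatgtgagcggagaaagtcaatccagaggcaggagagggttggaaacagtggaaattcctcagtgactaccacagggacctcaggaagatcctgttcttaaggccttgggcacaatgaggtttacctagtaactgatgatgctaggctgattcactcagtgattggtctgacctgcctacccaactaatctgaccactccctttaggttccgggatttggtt
H2-Oa: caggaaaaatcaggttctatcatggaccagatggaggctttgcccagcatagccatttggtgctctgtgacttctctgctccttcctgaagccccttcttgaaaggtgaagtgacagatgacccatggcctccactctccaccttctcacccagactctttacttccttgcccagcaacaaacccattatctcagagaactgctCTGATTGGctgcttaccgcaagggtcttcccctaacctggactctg
H2-Oa, which averaged 4.54 ± 0.641 CPM at 24 h and 1.86 ± 0.106 CPM at 8 h (1.26 ± 0.40, adjusted p = 0.012), held the Y box letters at -46 to -39. The printed windows of H2-DMa, 1 of 2 in the source, and of H2-DMb1 held none of the motifs searched, which says only that these exact letters are not in them. Elsewhere in its searched windows H2-DMa held an ISRE core. Of 12 class II pathway genes with a window 4 held the Y box letters (33.33%), against 4.7% of all genes and 6.45% of tested genes with a window. The holders were H2-Oa, which rose, and H2-Aa, H2-Eb1 and H2-Eb2, which were not called. The risers H2-DMa, H2-DMb1, Rfx5 and Ifi30 did not hold these letters in their windows.

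MHC class I genes moved less uniformly. The non-classical genes H2-Q6, H2-Q7 and H2-Q4 rose, and reads may have been shared between these near-identical copies. H2-Q6 had 756, 735, 620.0 and 657 CPM at 24 h, against 254, 207, 195 and 215 CPM at 8 h (1.67 ± 0.22, adjusted p = 8.1e-08). H2-Q7 averaged 1186 ± 99.1 CPM at 24 h and 547 ± 56.5 CPM at 8 h (1.12 ± 0.20, adjusted p = 2.6e-05), and H2-Q4 474 ± 41.0 CPM at 24 h and 329 ± 37.8 CPM at 8 h (0.52 ± 0.15, adjusted p = 0.0049). Nlrc5, the class I counterpart of Ciita, fell, at 161 ± 19.4 CPM at 24 h and 305 ± 29.6 CPM at 8 h (-0.92 ± 0.20, adjusted p = 2.6e-04). Of 20 genes tested 5 rose (25.0%) and 3 fell (15.0%), against 16.7% and 20.5% of all tested genes. Only 1 fell without replicate 3 at 24 h or without replicate 2 at 8 h. Costimulatory and activation markers were mostly lower. Cd83, which holds class II and Cd86 at the cell surface, had 61.0, 63.0, 66.1 and 63.9 CPM at 24 h, against 636, 558, 605 and 579 CPM at 8 h (-3.23 ± 0.15, adjusted p = 7.2e-19), with each group in a narrow band. Cd69 averaged 68.7 ± 19.6 CPM at 24 h and 425 ± 63.7 CPM at 8 h (-2.63 ± 0.37, adjusted p = 4.8e-07) and Cd48 143 ± 16.4 CPM at 24 h and 284 ± 36.4 CPM at 8 h (-0.99 ± 0.16, adjusted p = 3.7e-06). Of 16 tested genes 10 fell (62.5%) and 2 rose (12.5%), the risers being the receptors Slamf1 (1.18 ± 0.24, adjusted p = 1.6e-04) and Havcr2 (Tim-3, 1.58 ± 0.26, adjusted p = 6.4e-06).

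**Figure D3:**
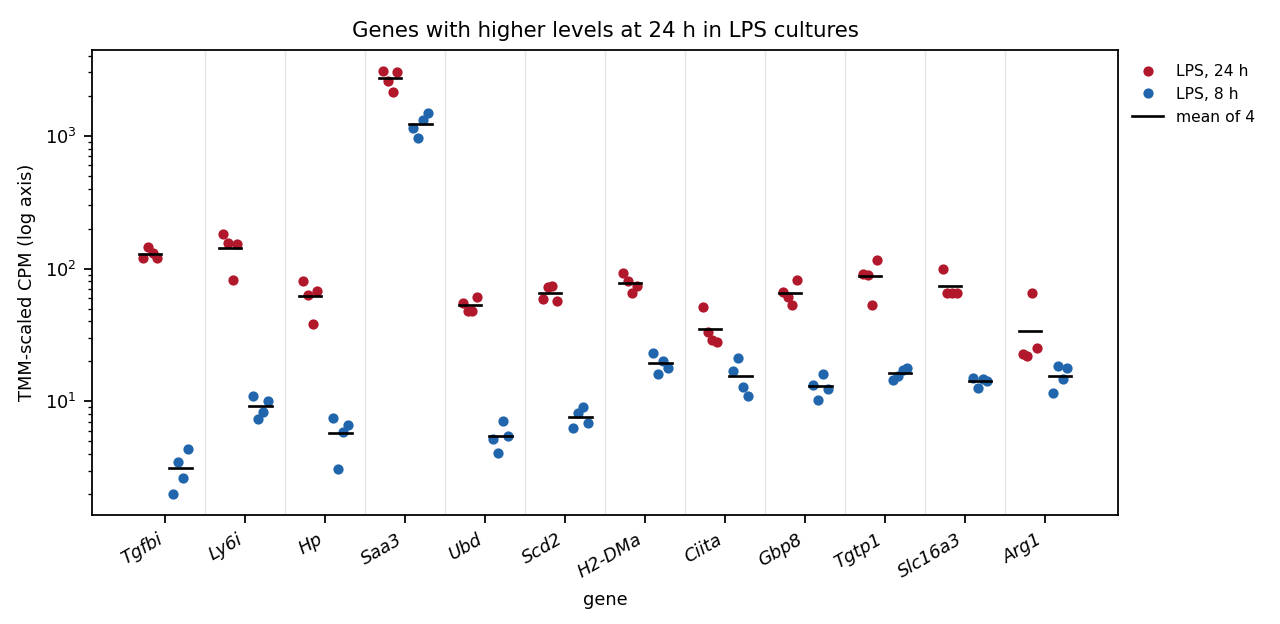
Level in CPM (log axis) of 12 genes that were higher at 24 h of LPS (red, 4 cultures) than at 8 h (blue, 4 cultures), 1 point per culture, with bars at the means. The groups do not overlap for any gene shown, and Arg1 has 1 high culture at 24 h, at 65.1 CPM, with the other 24 h cultures between 21.8 and 25.1 CPM.

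Most NF-kB genes and their inhibitors fell. The subunits Rel, Nfkb1 and Nfkb2 averaged 56.6 ± 8.38 CPM at 24 h and 186 ± 33.4 CPM at 8 h, 146 ± 6.14 CPM at 24 h and 497 ± 22.6 CPM at 8 h and 140.2 ± 19.9 CPM at 24 h and 507 ± 38.2 CPM at 8 h, with log2 changes of -1.72 ± 0.15, adjusted p = 1.4e-11, -1.77 ± 0.20, adjusted p = 4.3e-09 and -1.86 ± 0.23, adjusted p = 2.1e-08. Nfkbiz, the co-activator of Il6 and Il12b transcription, averaged 66.4 ± 5.49 CPM at 24 h and 245 ± 16.2 CPM at 8 h (-1.88 ± 0.28, adjusted p = 9.5e-07). Of 19 genes tested 14 fell (73.7%, against 20.5% of all tested genes), 3 did not pass and 2 rose. The falls numbered 11 without replicate 3 at 24 h and likewise 11 without replicate 2 at 8 h. The risers were Ikbkg, the NEMO subunit of the IkB kinase (0.40 ± 0.12, adjusted p = 0.0069), and Bcl3 (0.54 ± 0.22, adjusted p = 0.046). Bcl3 did not pass with RLE size factors, in DESeq2 or without any 1 of 5 of the libraries (replicates 1, 2 and 4 at 24 h, 1 and 2 at 8 h). Of 25 feedback genes 10 fell (40.0%, against 20.5% of all tested genes), 4 rose and 11 did not pass. Dusp2, a phosphatase of MAP kinases, had 1.40, 1.94, 2.55 and 2.27 CPM at 24 h, against 20.7, 18.02, 18.4 and 26.7 CPM at 8 h (-3.28 ± 0.25, adjusted p = 2.5e-13), below the 11.8 CPM of unstimulated cultures at 24 h. Zfp36 (tristetraprolin), which marks cytokine mRNAs for decay, averaged 48.3 ± 4.58 CPM at 24 h and 133 ± 8.04 CPM at 8 h (-1.47 ± 0.15, adjusted p = 3.1e-10). Il10ra, a chain of the interleukin 10 receptor, averaged 46.1 ± 6.25 CPM at 24 h and 97.8 ± 10.8 CPM at 8 h (-1.09 ± 0.16, adjusted p = 8.6e-07), and Cd200r1, an inhibitory receptor, 47.0 ± 7.86 CPM at 24 h and 87.6 ± 6.70 CPM at 8 h (-0.89 ± 0.14, adjusted p = 3.1e-06). Socs3 averaged 242 ± 34.8 CPM at 24 h and 436 ± 58.0 CPM at 8 h (-0.85 ± 0.30, adjusted p = 0.022) and did not pass when any of 6 of the 8 libraries was left out.

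Among immediate-early and sensor genes more fell than rose, and many did not pass. Klf6, Atf3, Ier5 and Nr4a3 had log2 changes of -0.97 ± 0.16, adjusted p = 5.2e-06, -0.83 ± 0.15, adjusted p = 3.5e-05, -0.84 ± 0.16, adjusted p = 7.1e-05 and -1.73 ± 0.34, adjusted p = 1.2e-04. In that immediate-early list of 20 tested genes 9 fell (45.0%, against 20.5% of all tested genes), 9 did not pass and 2 rose, Fos (0.95 ± 0.21, adjusted p = 3.9e-04) and Klf4 (0.84 ± 0.32, adjusted p = 0.033), and Klf4 did not pass with RLE size factors, without replicate 1 or 4 at 24 h or without replicate 2 at 8 h. Among 20 tested Toll-like receptor pathway genes 8 fell (40.0%), 9 did not pass and 3 rose. The endosomal receptors Tlr3 and Tlr7, for double-stranded and single-stranded RNA, averaged 91.1 ± 20.1 CPM at 24 h and 252 ± 31.6 CPM at 8 h (-1.47 ± 0.22, adjusted p = 1.2e-06) and 302 ± 62.2 CPM at 24 h and 722 ± 140.2 CPM at 8 h (-1.26 ± 0.21, adjusted p = 6.4e-06), and Myd88 116 ± 14.5 CPM at 24 h and 233 ± 17.9 CPM at 8 h (-1.01 ± 0.14, adjusted p = 5.0e-07). Tlr4 itself, the LPS receptor, had 109, 159, 131 and 120.5 CPM at 24 h, against 60.1, 59.9, 65.4 and 41.9 CPM at 8 h (1.19 ± 0.20, adjusted p = 1.2e-05), with every 24 h culture above every 8 h culture. The other risers were Tlr13 (0.92 ± 0.19, adjusted p = 2.1e-04), a receptor for bacterial ribosomal RNA, and Traf6 (0.46 ± 0.14, adjusted p = 0.0067). Of 20 inflammasome and nucleic acid sensor genes 10 fell (50.0%), 9 did not pass and 1 rose. Nlrp3 averaged 90.3 ± 10.0 CPM at 24 h and 301 ± 8.90 CPM at 8 h (-1.74 ± 0.25, adjusted p = 6.0e-07), Aim2 78.5 ± 5.34 CPM at 24 h and 152 ± 14.5 CPM at 8 h (-0.95 ± 0.12, adjusted p = 3.6e-08) and Ifi204 999.8 ± 127 CPM at 24 h and 2359 ± 249 CPM at 8 h (-1.24 ± 0.18, adjusted p = 7.1e-07). Mb21d1 (cGAS) had a log2 change of -1.06 ± 0.16, adjusted p = 1.2e-06. The riser was Nlrc4, which forms the inflammasome for flagellin, with 18.5, 18.7, 19.1 and 16.9 CPM at 24 h, against 7.19, 7.33, 7.78 and 2.76 CPM at 8 h (1.51 ± 0.24, adjusted p = 3.7e-06).

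**Figure D4:**
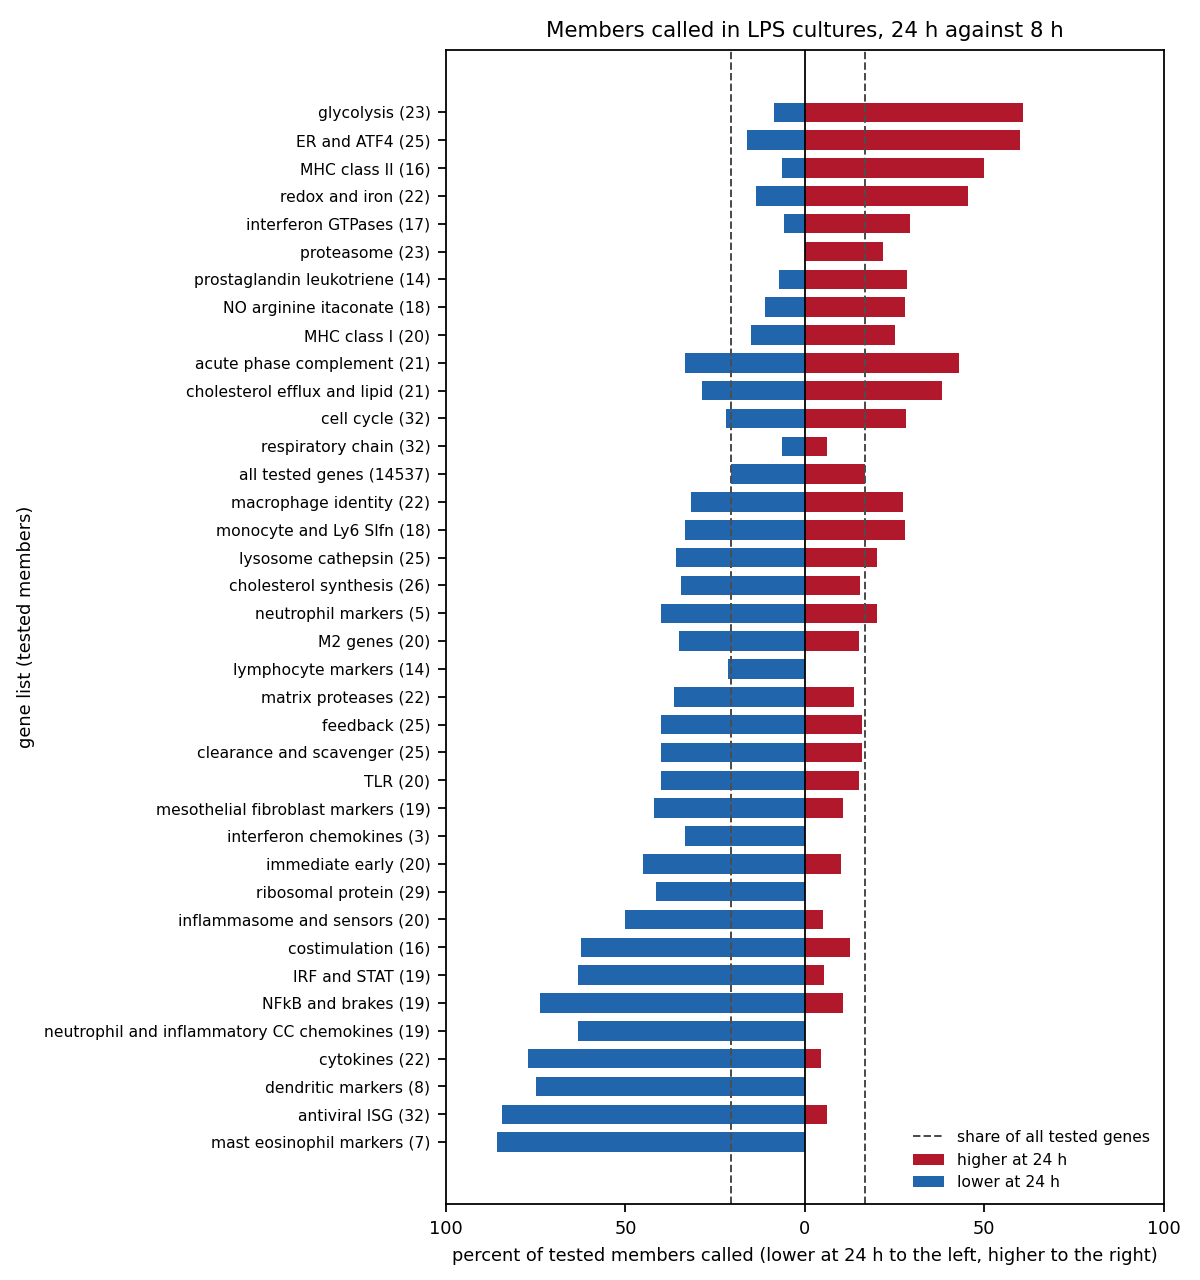
Share of tested members of each of 37 gene lists, and of all tested genes, that were lower (blue, leftward) or higher (red, rightward) at 24 h than at 8 h of LPS, with the number tested in parentheses and dashed lines at the shares over all genes (20.5% and 16.7%). Antiviral genes and cytokines lie far to the left and glycolysis, chaperones and MHC class II to the right.

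Genes of glycolysis and the hypoxia response mostly rose, and those of the respiratory chain mostly did not pass. Of 23 glycolysis and hypoxia genes 14 rose (60.9%, against 16.7% of all tested genes), 2 fell and 7 did not pass, with a median of 0.80. The groups of each gene named next did not overlap. Slc16a3, the lactate exporter, had 98.7, 65.5, 65.5 and 66.0 CPM at 24 h, against 14.9, 12.6, 14.6 and 14.3 CPM at 8 h (2.38 ± 0.18, adjusted p = 2.5e-13). Bnip3, a mitochondrial protein of hypoxia and mitophagy, had 65.2, 63.1, 55.5 and 67.2 CPM at 24 h, against 16.7, 13.8, 20.6 and 17.9 CPM at 8 h (1.86 ± 0.15, adjusted p = 2.0e-12). Tpi1, a glycolytic isomerase, averaged 291 ± 43.1 CPM at 24 h and 88.3 ± 8.77 CPM at 8 h (1.72 ± 0.15, adjusted p = 4.7e-12), and the growth factor Vegfa 61.9 ± 11.6 CPM at 24 h and 15.2 ± 4.28 CPM at 8 h (2.01 ± 0.18, adjusted p = 8.5e-12). In all 4 the mean at 8 h was below that of unstimulated cultures at 8 h, whose means were 25.7, 30.2, 231 and 53.9 CPM in that order. Of 32 nuclear-coded respiratory chain subunits 2 rose, 2 fell and 28 did not pass. Atp5c1 rose (0.48 ± 0.14, adjusted p = 0.0082), and Cycs and Ndufa4 fell (-0.79 ± 0.12, adjusted p = 2.8e-06 and -0.95 ± 0.23, adjusted p = 0.0012).

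Lipid and redox genes moved in both directions. Scd2, a desaturase that makes monounsaturated fatty acids, had 59.3, 72.3, 73.7 and 57.0 CPM at 24 h, against 6.32, 8.20, 9.06 and 6.90 CPM at 8 h (3.08 ± 0.26, adjusted p = 3.9e-12). The cholesterol exporters Abca1 and Abcg1, targets of LXR, rose. Abca1 had 377, 597, 508 and 430.4 CPM at 24 h, against 116, 148, 142 and 107 CPM at 8 h (1.90 ± 0.21, adjusted p = 2.1e-09), and Abcg1 averaged 170.0 ± 12.2 CPM at 24 h and 65.8 ± 4.63 CPM at 8 h (1.37 ± 0.13, adjusted p = 5.0e-11). Cd36, a receptor for oxidized lipoprotein, fell, with 785, 915, 1071 and 875 CPM at 24 h, against 2852, 2549, 3089.5 and 2522 CPM at 8 h (-1.59 ± 0.14, adjusted p = 1.3e-11). In that list 8 of 21 rose (38.1%) and 6 fell (28.6%), against 16.7% and 20.5% of all tested genes. Among 26 cholesterol synthesis genes 9 fell (34.6%), 4 rose (15.4%, near the share over all genes) and 13 did not pass. In this list 5 fell without replicate 3 at 24 h or without replicate 2 at 8 h. Dhcr7, Lss and Mvd, enzymes of the pathway, rose (1.78 ± 0.18, adjusted p = 3.9e-10, 0.80 ± 0.12, adjusted p = 1.2e-06 and 1.21 ± 0.22, adjusted p = 2.3e-05), while Insig1, which holds SREBP in the endoplasmic reticulum, fell (-1.01 ± 0.19, adjusted p = 3.7e-05). Of 22 redox and iron genes 10 rose (45.5%) and 3 fell (13.6%). Gclm, a subunit of the enzyme that starts glutathione synthesis, averaged 210.5 ± 13.3 CPM at 24 h and 79.9 ± 3.63 CPM at 8 h (1.40 ± 0.18, adjusted p = 5.3e-08), and Hmox1, which breaks down haem, 425 ± 19.9 CPM at 24 h and 172 ± 17.8 CPM at 8 h (1.31 ± 0.17, adjusted p = 7.5e-08). Slc11a1 (Nramp1), which takes metal ions out of the phagosome, had 882, 813, 667 and 721 CPM at 24 h, against 363, 313, 319 and 294 CPM at 8 h (1.26 ± 0.16, adjusted p = 3.2e-08).

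Some genes of secreted defence proteins rose and others fell. Hp, which binds free haemoglobin, had 80.3, 63.3, 38.1 and 68.2 CPM at 24 h, against 7.47, 3.08, 5.92 and 6.67 CPM at 8 h (3.47 ± 0.42, adjusted p = 1.8e-08). Lcn2, which captures bacterial siderophores, had 192, 148, 54.3 and 141 CPM at 24 h, against 29.0, 23.3, 26.9 and 20.5 CPM at 8 h (2.42 ± 0.37, adjusted p = 2.6e-06). Saa3, an acute-phase apolipoprotein, had 3055, 2602, 2132 and 3023 CPM at 24 h, against 1135, 958, 1317 and 1492 CPM at 8 h (1.14 ± 0.30, adjusted p = 0.0026). Replicate 3 was the lowest 24 h culture for Hp, Lcn2 and Saa3, and for each it still lay above every 8 h culture. C3 had 768, 769, 724 and 585 CPM at 24 h, against 281, 266, 270.3 and 182 CPM at 8 h (1.51 ± 0.22, adjusted p = 5.6e-07). C1rl, a protease related to complement C1r, averaged 42.9 ± 6.59 CPM at 24 h and 5.95 ± 0.488 CPM at 8 h (2.85 ± 0.31, adjusted p = 1.7e-09). Of 21 tested acute-phase and complement genes 9 rose (42.9%) and 7 fell (33.3%), against 16.7% and 20.5% of all tested genes. Ptx3, a pattern-recognition pentraxin, fell, at 13.5 ± 1.23 CPM at 24 h and 81.9 ± 13.9 CPM at 8 h (-2.59 ± 0.33, adjusted p = 4.3e-08). At 72 h of LPS, Hp stood at 696 CPM and Saa3 at 14619 CPM (n = 4).

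The largest rise among protein-coding genes of at least 5 CPM was that of Tgfbi, an extracellular matrix adhesion protein (chr13:56609523-56639562 in GRCm38). It had 120.3, 146, 131 and 121 CPM at 24 h, against 2.01, 3.52, 2.67 and 4.37 CPM at 8 h (5.35 ± 0.48, adjusted p = 1.4e-11), and the 8 h values were below the 9.41 CPM of unstimulated cultures. The genes of Ly6 surface proteins rose with large changes too. Ly6i had 182, 155, 81.4 and 153 CPM at 24 h, against 10.9, 7.33, 8.36 and 10.1 CPM at 8 h (3.98 ± 0.33, adjusted p = 2.0e-12). Ly6a had 167, 146, 63.3 and 142 CPM at 24 h, against 18.7, 13.6, 19.6 and 19.6 CPM at 8 h (2.86 ± 0.26, adjusted p = 1.9e-11). Ly6c2, known from inflammatory monocytes, had 82.5, 78.0, 39.7 and 70.7 CPM at 24 h, against 8.34, 7.47, 11.4 and 10.4 CPM at 8 h (2.83 ± 0.24, adjusted p = 4.5e-12). Replicate 3 was the lowest of the 24 h cultures in all 3, and Ly6 genes are close copies of each other. Of 18 tested monocyte, Ly6 and Slfn genes 5 rose (27.8%) and 6 fell (33.3%), against 16.7% and 20.5% of all tested genes. Ubd, a ubiquitin-like modifier induced by interferon gamma and TNF, had 55.1, 48.3, 47.7 and 60.6 CPM at 24 h, against 5.17, 4.10, 7.09 and 5.52 CPM at 8 h (3.25 ± 0.31, adjusted p = 7.1e-11). Adgb (androglobin) averaged 32.0 ± 4.61 CPM at 24 h and 2.61 ± 1.12 CPM at 8 h (3.54 ± 0.25, adjusted p = 3.8e-14) and the neutral amino acid carrier Slc6a19 25.5 ± 3.36 CPM at 24 h and 2.68 ± 0.987 CPM at 8 h (3.27 ± 0.34, adjusted p = 4.8e-10). The interleukin 21 receptor Il21r averaged 32.6 ± 1.86 CPM at 24 h and 4.36 ± 0.634 CPM at 8 h (2.87 ± 0.27, adjusted p = 3.4e-11), the inhibitory lectin Siglece 13.3 ± 3.37 CPM at 24 h and 1.65 ± 1.18 CPM at 8 h (2.89 ± 0.37, adjusted p = 6.2e-08) and Nbeal2, needed for platelet alpha granules, 12.6 ± 1.91 CPM at 24 h and 1.68 ± 1.04 CPM at 8 h (3.03 ± 0.34, adjusted p = 4.4e-09).

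Among the largest falls outside the cytokines were secreted and matrix genes. Edn1, the vasoconstrictor endothelin 1, had 16.5, 14.1, 23.3 and 16.5 CPM at 24 h, against 427, 348, 429.8 and 475 CPM at 8 h (-4.57 ± 0.50, adjusted p = 1.9e-09). Vcan, the proteoglycan versican, had 35.8, 50.4, 40.1 and 38.3 CPM at 24 h, against 415, 534, 617 and 335 CPM at 8 h (-3.52 ± 0.29, adjusted p = 1.6e-12). Mamdc2, a secreted protein with MAM domains, had 10.6, 8.13, 6.13 and 5.93 CPM at 24 h, against 118, 109, 131 and 111 CPM at 8 h (-3.98 ± 0.21, adjusted p = 1.4e-17). No 24 h culture overlapped the 8 h cultures in these 3 genes. Angpt1, the ligand of the endothelial receptor Tie2, averaged 0.405 ± 0.319 CPM at 24 h and 10.0 ± 1.62 CPM at 8 h (-4.40 ± 0.55, adjusted p = 3.0e-08). Gprc5c, an orphan receptor, and Armcx6 had log2 changes of -4.09 ± 0.53, adjusted p = 7.0e-08 and -3.43 ± 0.35, adjusted p = 3.0e-10. F3, tissue factor, averaged 6.53 ± 1.55 CPM at 24 h and 48.7 ± 6.09 CPM at 8 h (-2.86 ± 0.24, adjusted p = 2.7e-12). Plaur, the urokinase receptor, averaged 170.3 ± 21.5 CPM at 24 h and 572 ± 43.6 CPM at 8 h (-1.75 ± 0.19, adjusted p = 1.2e-09), and the elastase Mmp12 1088 ± 272 CPM at 24 h and 4576 ± 343 CPM at 8 h (-2.07 ± 0.18, adjusted p = 1.1e-11), while the gelatinase Mmp9 averaged 25.4 ± 4.18 CPM at 24 h and 6.92 ± 1.81 CPM at 8 h (1.89 ± 0.20, adjusted p = 6.0e-10). Of 22 matrix protease genes 8 fell (36.4%) and 3 rose (13.6%), against 20.5% and 16.7% of all tested genes.

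Among scavenger receptors and genes of alternative activation some fell, and most did not. Mrc1, the mannose receptor, had 19.6, 16.3, 26.7 and 14.6 CPM at 24 h, against 126, 128, 154 and 108 CPM at 8 h (-2.74 ± 0.25, adjusted p = 1.5e-11). Unstimulated cultures averaged 202 CPM at 24 h and 154 CPM at 8 h. Cd93 had 57.3, 67.8, 60.3 and 52.8 CPM at 24 h, against 331, 363, 386 and 272 CPM at 8 h (-2.50 ± 0.19, adjusted p = 2.5e-13). Mfge8, a bridge to dying cells, averaged 527 ± 71.6 CPM at 24 h and 1152 ± 78.5 CPM at 8 h (-1.13 ± 0.13, adjusted p = 1.1e-08). In the list of scavenger and clearance genes 10 of 25 tested fell (40.0%), 11 did not pass and 4 rose. Of 20 tested genes of alternative activation 7 fell (35.0%), 10 did not pass and 3 rose, Arg1 among the risers as given above, and F13a1, Socs2 and Ccl22 fell (-2.40 ± 0.37, adjusted p = 1.8e-06, -1.75 ± 0.30, adjusted p = 1.2e-05 and -1.04 ± 0.28, adjusted p = 0.0033). With RLE size factors 1 of them rose, and without replicate 2 at 8 h 4 fell. Lineage genes of the macrophage list showed 6 rises (27.3%) and 7 falls (31.8%) of 22. Cebpa, a myeloid transcription factor, had 84.7, 83.0, 112 and 94.9 CPM at 24 h, against 28.2, 23.3, 22.8 and 29.7 CPM at 8 h (1.86 ± 0.15, adjusted p = 1.5e-12). The Fc receptor gene Fcgr3 averaged 331 ± 27.1 CPM at 24 h and 135 ± 17.4 CPM at 8 h (1.30 ± 0.16, adjusted p = 3.4e-08). At 24 h Cebpa was still below the 177 CPM of unstimulated cultures.

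Genes of protein production were uneven. Of 25 endoplasmic reticulum chaperone and Atf4 genes 15 rose (60.0%, against 16.7% of all tested genes) and 4 fell. The chaperones Pdia3 and Hsp90b1 averaged 510.1 ± 48.8 CPM at 24 h and 267 ± 31.4 CPM at 8 h (0.93 ± 0.13, adjusted p = 6.8e-07) and 629 ± 85.6 CPM at 24 h and 363 ± 57.6 CPM at 8 h (0.79 ± 0.14, adjusted p = 2.5e-05), while Asns and Psat1, enzymes of asparagine and serine synthesis, fell (-0.77 ± 0.12, adjusted p = 5.1e-06 and -0.66 ± 0.12, adjusted p = 3.3e-05). Ribosomal protein genes showed 12 falls (41.4%, against 20.5% of all tested genes) and 0 rises among 29, with a median of -0.58. Without replicate 3 at 24 h there were 5 falls. Rpl10a averaged 104 ± 10.4 CPM at 24 h and 229 ± 57.4 CPM at 8 h (-1.14 ± 0.24, adjusted p = 2.5e-04), and Rps14 and Rps7 had log2 changes of -0.77 ± 0.22, adjusted p = 0.0057 and -0.81 ± 0.24, adjusted p = 0.0076. Of 23 proteasome genes 5 rose (21.7%, near the share over all genes) and 0 fell, with Psma1 (0.68 ± 0.12, adjusted p = 2.3e-05), Psmc1 (0.48 ± 0.15, adjusted p = 0.0082) and Psmc5 (0.42 ± 0.14, adjusted p = 0.015) among them, and with RLE size factors 3 rose. Among 25 lysosomal genes 9 fell (36.0%) and 5 rose. The cathepsin genes Ctsl and Ctsd fell (-1.24 ± 0.13, adjusted p = 3.0e-10 and -0.73 ± 0.14, adjusted p = 5.7e-05), as did the proton pump subunit Atp6v0d2 (-0.85 ± 0.13, adjusted p = 1.4e-06), and Ctsh rose, at 1174 ± 176 CPM at 24 h and 544 ± 54.1 CPM at 8 h (1.11 ± 0.15, adjusted p = 1.8e-07). Of 32 cell cycle genes 9 rose (28.1%) and 7 fell (21.9%, near the share over all genes). E2f1 and Ccne1, which act at entry into DNA synthesis, averaged 19.1 ± 1.34 CPM at 24 h and 4.75 ± 0.452 CPM at 8 h (2.01 ± 0.16, adjusted p = 1.5e-12) and 34.4 ± 2.03 CPM at 24 h and 13.7 ± 0.312 CPM at 8 h (1.33 ± 0.16, adjusted p = 1.1e-08). Ccnd2, a cyclin of the preceding phase, had 31.6, 39.4, 36.5 and 37.1 CPM at 24 h, against 251, 282, 338 and 255 CPM at 8 h (-2.96 ± 0.27, adjusted p = 2.1e-11), and the stress gene Gadd45b averaged 146 ± 24.7 CPM at 24 h and 632 ± 103 CPM at 8 h (-2.11 ± 0.17, adjusted p = 1.5e-12).

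Summed markers of other cells that a peritoneal isolate can hold were far below the summed macrophage genes, but not every marker was low. Dcn averaged 110 CPM at 24 h and 85.5 CPM at 8 h, and Col1a2 86.8 and 52.8 CPM. Itgax averaged 87.4 CPM at 24 h and 135 CPM at 8 h, and Csf3r 57.1 and 81.6 CPM. Summed lymphocyte markers (17 genes) were 23.4 to 30.4 CPM at 24 h and 59.5 to 64.3 CPM at 8 h, with 3 of 14 tested falling (21.4%, near the 20.5% of all tested genes), such as Lck (-2.09 ± 0.25, adjusted p = 2.0e-08) and Ms4a1 (-1.55 ± 0.35, adjusted p = 6.3e-04). Mast cell and eosinophil markers (11 genes) summed to 7.51 to 8.28 CPM at 24 h and 21.4 to 27.6 CPM at 8 h, and 6 of 7 tested fell, such as Cpa3 (-1.85 ± 0.36, adjusted p = 9.2e-05). Of their defining genes, Prg2 had no read at 24 h and Epx none at 8 h. Dendritic cell markers (9 genes) summed to 88.9 to 153 CPM at 24 h and 168 to 214 CPM at 8 h, with 6 of 8 tested falling, and 2 without replicate 2 at 8 h. Fscn1 had a log2 change of -0.93 ± 0.20, adjusted p = 4.4e-04 and Xcr1 one of -3.08 ± 0.70, adjusted p = 5.9e-04. Neutrophil markers (11 genes) summed to 61.2 to 72.7 CPM at 24 h and 75.5 to 107 CPM at 8 h. Of these Elane was at 0 in both groups, Ngp and Retnlg at 0 at 24 h and Ly6g at 0 at 8 h, and of 5 tested 1 rose and 2 fell (0 without replicate 2 at 8 h). Mesothelial and fibroblast markers (21 genes) summed to 251 to 301 CPM at 24 h and 202 to 249 CPM at 8 h. Among 19 tested 8 fell, with the mesothelial genes Lrrn4 and Upk3b (-3.23 ± 0.53, adjusted p = 5.7e-06 and -2.25 ± 0.48, adjusted p = 2.9e-04) among them, and 2 rose, the collagens Col1a1 (0.93 ± 0.21, adjusted p = 4.8e-04) and Col1a2. In bulk RNA, the cells that a marker's reads came from are not known, and fewer cells of a type and less RNA per cell cannot be told apart. The part of these cells in the results above was not tested.

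**Figure D5:**
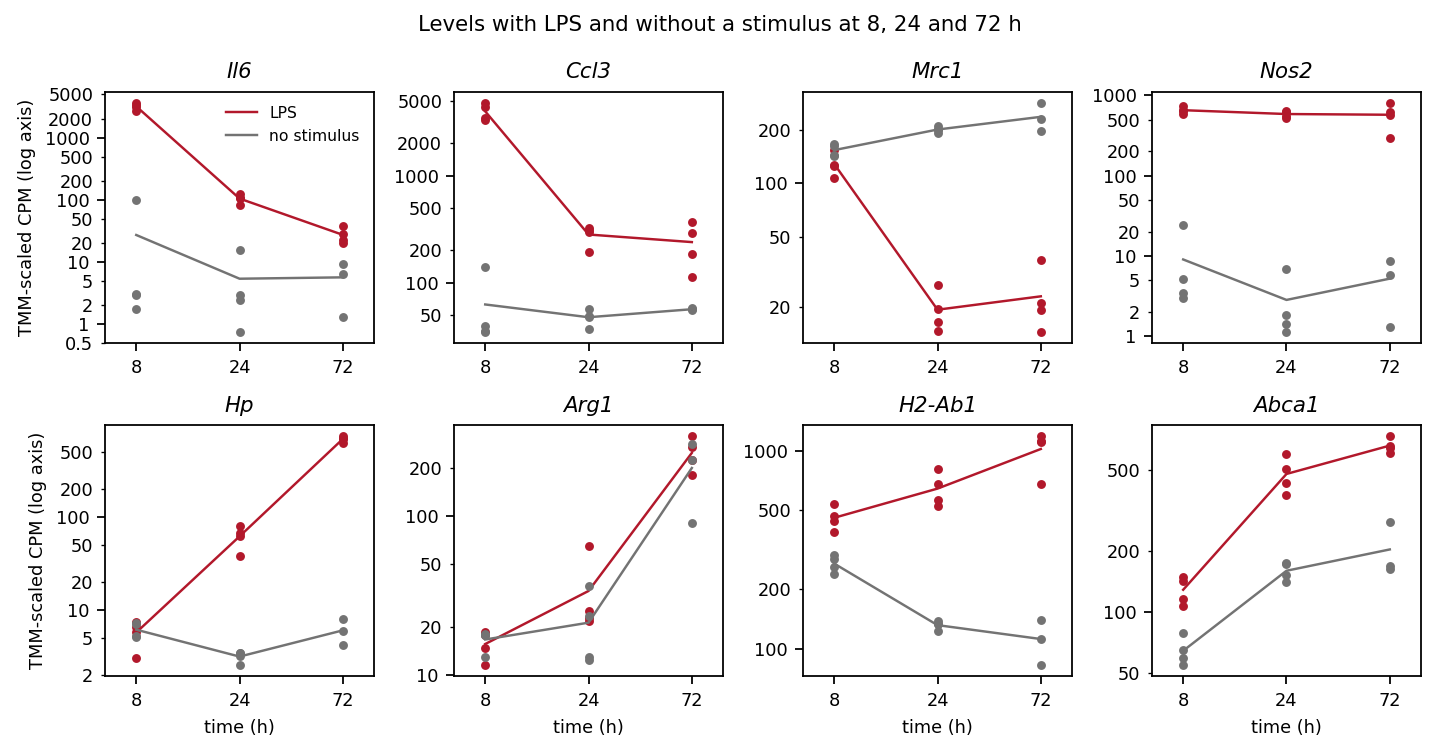
Level in CPM (log axes) of 8 genes at 8, 24 and 72 h in cultures with LPS (red, 4 at each time) and without a stimulus (grey, 4, 4 and 3), 1 point per culture, with lines through the means. With LPS, Il6, Ccl3 and Mrc1 are lower at 24 h than at 8 h, Nos2 is nearly level, and Hp, Arg1, H2-Ab1 and Abca1 are higher.

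Time in culture passed in unstimulated cells too, so the change with LPS was set against the change without it in the same model. The difference, the log2 change with LPS minus the log2 change without a stimulus, was positive for 1285 genes (8.84% of those tested) and negative for 1203 (8.28%). The 6 largest positive differences by the rule for named genes were those of Gbp11, Tgfbi, Ubd, Hp, Ly6i and Adgb. Tgfbi had 129 CPM at 24 h and 3.14 CPM at 8 h with LPS, and 9.64 and 9.41 CPM without it, a difference of 5.31 ± 0.62, adjusted p = 3.2e-08. For Hp it was 4.44 ± 0.61, adjusted p = 6.4e-07, for Ly6i 4.27 ± 0.60, adjusted p = 1.1e-06, for Adgb 4.18 ± 0.45, adjusted p = 5.7e-09 and for Ubd 4.60 ± 0.83, adjusted p = 7.5e-05. Gbp11 had 0 counts without a stimulus at 24 h and 5 counts over the 4 libraries at 8 h, so its fitted difference is no bound on a fold, and it was not called without replicate 2 of the 8 h controls. The negative differences were led by Mamdc2 (-4.14 ± 0.27, adjusted p = 2.0e-14), Vcan (-3.70 ± 0.41, adjusted p = 8.6e-09), Cd83 (-3.46 ± 0.20, adjusted p = 1.8e-15) and Ccl3 (-3.43 ± 0.54, adjusted p = 9.1e-06). Mamdc2 held 562 and 503 CPM without a stimulus at 24 and 8 h. Slc9a9, a sodium/proton exchanger, and Cdkn1c (p57), an inhibitor of the cell cycle, followed, with Cdkn1c at 31.8 CPM at 24 h and 213 CPM at 8 h with LPS and at 489.9 and 329 CPM without it (-3.32 ± 0.50, adjusted p = 3.7e-06).

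Of 16 class II pathway genes 8 had a positive difference and 0 a negative one, where 8.84% and 8.28% of all tested genes did. H2-Ab1 averaged 131 CPM at 24 h and 269 CPM at 8 h without a stimulus, opposite in direction to its levels with LPS, and its difference was 1.52 ± 0.27, adjusted p = 7.1e-05. For glycolysis 12 of 23 were positive and 1 negative, and for the chaperone and Atf4 list 11 of 25 and 2. Cytokines had 7 negative and 0 positive of 22, with 12 negative when replicate 1 of both controls was left out and 5 without the libraries rich in ribosomal RNA. Antiviral interferon-stimulated genes, of which 27 of 32 fell with LPS, had 8 negative and 2 positive differences, with 16 negative without replicate 1 of both controls. The difference of Il6 was not called, at -2.33 ± 1.09, adjusted p = 0.15. In unstimulated cultures Il6 was at 15.3, 0.749, 2.94 and 2.46 CPM at 24 h and 101, 1.74, 3.04 and 2.98 CPM at 8 h, with replicate 1 the highest at both times. Tnf was at 28.9, 6.10, 12.8 and 7.84 CPM at 24 h and 96.4, 8.76, 6.71 and 9.70 CPM at 8 h, with replicate 1 again the highest, and its difference was -1.15 ± 0.81, adjusted p = 0.39. Without replicate 1 of the 8 h controls the difference was -5.81 for Il6 and -2.99 for Tnf, and both were called. Without replicate 1 of both controls they were -4.73 and -2.43, again called, while without replicate 1 of the 24 h controls alone they were -1.24 and -0.58. Without the filter on low counts they were -2.25 and -1.07, and both were called. Over all genes, without replicate 1 of both controls, 1058 differences were positive and 1067 negative. For Abca1, which averaged 159 CPM at 24 h and 64.2 CPM at 8 h without a stimulus, the difference was not called (0.59 ± 0.29, adjusted p = 0.17). The difference of Arg1 was not called either (0.76 ± 0.45, adjusted p = 0.28).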

How the data were processed

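RNA was sequenced from 44 cultures of 1 macrophage isolate, as polyadenylated RNA (Diagenode CATS mRNA-seq v2 kit) in single-end reads of 50 bp, according to the labels' protocols. The authors deposited raw counts of reads for 46078 Ensembl genes and 5 summary entries. The submitters' processing notes name build mm10 and, in no stated order, HTSeq, TopHat2 2.1.1, TopHat, Bowtie2, cutadapt, edgeR and DESeq. For the counting, annotation release and strandedness were not given in the sources used here. Where genes overlap or lie antisense (Il1b and Il1bos, Cxcl10 and Art3, Mrc1 and Mir511) their reads thus cannot be told apart, and close copies (Gbp, Tgtp, Ly6, H2-Q) are uncertain. The summary entries entered neither library sizes nor tests. Ambiguous reads were 5.39% of genic and ambiguous reads together and 12.2% in replicate 3 of LPS at 24 h. GENCODE M21 (GRCm38), which held 45229 of the identifiers, gave symbols and positions, and RefSeq (GRCm38.p6) the promoters. In the table Acod1 is called by an older symbol.

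In R 4.3.3, edgeR 4.0.16 fitted 1 quasi-likelihood model with a coefficient for each of the 12 groups to all 44 libraries, with TMM scaling, filterByExpr at a minimum count of 10 and a prior count of 0.125 (32 residual degrees of freedom, common biological coefficient of variation 0.219). The contrasts were LPS at 24 h minus LPS at 8 h, and that change minus the same change in unstimulated cultures. Calls needed an adjusted p (Benjamini-Hochberg, over all tested genes) under 0.05. The procedure was tested on simulated data. Replicate numbers were not used as pairs. Alternatives were RLE scaling, DESeq2 1.42.0, no filter, the compared groups alone, a replicate block, each library left out, both control libraries numbered 1 left out, a 2-fold condition and, added after seeing the data, the libraries rich in ribosomal RNA left out.

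The samples and the 37 gene lists (749 symbols, of which 721 were tested) were chosen with earlier results of these data known. Genes named were 18 fixed ones, the 12 largest rises and falls with a mean of at least 5 CPM, up to 4 per list with the smallest p, and 6 per direction of the difference, and some of these were left out for length or are not reported here. Rsad2, Tgtp2, Gbp10, H2-Oa, and the few members named because they went against their list (such as Ebi3, Bst2, Ifi27l2a, Irgm1, Ifngr1, Ctss, Slamf1, Ikbkg, Bcl3, Fos, Klf4, Tlr13, Traf6, Nlrc4 and Col1a2) were chosen after their values were seen, as were the zero counts of markers and the markers named as not low.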

Additional observations from a re-analysis of the deposited data

Results flagged for a closer look

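Among the genes reported by library, each LPS group of 4 cultures was searched for a culture whose distance to the nearest other one took up more of the group's range than Dixon's 95% critical value. It marked 23 of 348 groups, and chance marks about 1 in 20. In 5 of the 23 the culture was replicate 3 at 24 h, the library with 5.73% ribosomal RNA. It was high for Arg1 (65.1 CPM), Slamf1 (45.6 CPM) and Ifi30 (290.2 CPM) and low for Cxcl10 (411 CPM) and Nfkbiz (58.2 CPM). Replicate 1 at 24 h, the library with the fewest counts of the 8, was high for Cd74 (897 CPM) and Slc16a3 (98.7 CPM) and low for Asns (55.9 CPM), Ccne1 (31.3 CPM) and Ptger2 (13.4 CPM). Replicate 2 at 24 h was high for Adgb (38.9 CPM) and low for Plaur (138 CPM) and Rpl10a (88.4 CPM).

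At 8 h, replicate 3 was high for Tnfsf15 (427 CPM), Eif2ak2 (501 CPM), Gbp4 (221 CPM) and Idh2 (13.4 CPM), and replicate 1 for Nfkb2 (563 CPM) and Havcr2 (2.59 CPM). Replicate 2 was low for Ly6a (13.6 CPM), and replicate 4 for C3 (182 CPM), Abcg1 (58.9 CPM) and Nlrc4 (2.76 CPM).

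The change over time differed between LPS and unstimulated cultures, by the test of the difference itself, for 1285 genes in the positive and 1203 in the negative direction. Of those named, the log2 difference was positive for Tgfbi (5.31), Ubd (4.60), Hp (4.44), Ly6i (4.27), Adgb (4.18) and H2-Ab1 (1.52), and for Gbp11 (5.83), where unstimulated cultures had 5 counts in all and the value depends on the prior count. It was negative for Mamdc2 (-4.14), Vcan (-3.70), Cd83 (-3.46), Ccl3 (-3.43), Slc9a9 (-3.38) and Cdkn1c (-3.32).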

How the results depend on the processing

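Of 191 results for named genes, 2584 of 2646 values under the alternatives kept direction and side of the threshold, 48 were no longer called, 11 became called and 3 changed sign. Those 3 belonged to Cxcl9, which was not called, with a log2 change of 0.05 and values of -0.0033 with the replicate block, -0.16 without replicate 1 at 24 h and -0.08 without replicate 4 at 24 h (-0.16 to 0.39 over the libraries left out). With the 2-fold condition 900 genes rose and 1725 fell. Leaving out 1 library at a time gave 2035 to 2760 rises and 1863 to 2756 falls, the lowest count of falls being that without replicate 2 at 8 h. For the difference from unstimulated cultures it gave 1137 to 1413 positive and 937 to 1177 negative calls, and a fit of the 4 compared groups alone gave 1928 positive ones. The cause was not tested. Without 3 libraries rich in ribosomal RNA (replicate 3 of LPS at 24 h and of both controls), chosen after seeing the data, 1153 were positive and 838 negative. RLE scaling gave 2284 rises and 3153 falls, so that rises made up 42.0% of calls instead of 45.0%, and DESeq2 gave 2359 and 3271.

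The numbers given to replicates were not taken as pairs, since the labels do not say that they mark a shared batch. The correlations of same-numbered 24 h and 8 h cultures were 0.12, -0.02, 0.21 and 0.16. For replicates 1, 3 and 4 at 24 h the same-numbered 8 h culture had the highest correlation. Replicate 2 at 24 h correlated best with replicate 1 at 8 h (0.11). Whether the numbers mark a shared batch was not tested. With the replicate block 2571 genes rose and 3174 fell, and 1377 differences were positive and 1312 negative. The block also brought the Il6 difference to a call, at -2.81. Under 5 CPM the count of falls moved with replicate 2 at 8 h, and the calls of the Il6, Tnf and Gbp11 differences moved with single control libraries, whose cause was not tested.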

Other observations

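Some genes of the comparison continued in the same direction after 24 h and others did not. With LPS at 72 h (4 cultures), Ly6i averaged 774 CPM, Lcn2 521 CPM and Slc16a3 258 CPM, each above its mean at 24 h, and Arg1 averaged 250.1 CPM, against 201 CPM in unstimulated cultures at 72 h (3 cultures). Slc6a19, Siglece and Ccne1 averaged 6.79, 5.91 and 10.7 CPM at 72 h, each below its mean at 24 h. Among genes that fell by 24 h, Ccl6 and F13a1 averaged 353 and 8.46 CPM at 72 h, above their 24 h means of 118 and 0.469 CPM, and Tnf averaged 165 CPM, below its 24 h mean of 575 CPM. Of the ribosomal protein genes that fell by 24 h, Rps7 and Rps14 were above their 24 h means at 72 h, with Rps7 at 763 CPM and Rps14 at 1318 CPM. None of these values at 72 h was tested here.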
